A study of Mus musculus with 40 samples.

Results

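The genes described here are the SoxB transcription factors Sox1, Sox2, Sox3 and Sox21, the POU3 transcription factors Pou3f1, Pou3f2, Pou3f3 and Pou3f4, and nestin (Nes), 9 of the 26906 genes in the deposited count table, chosen by their symbols as genes of neural progenitors. They were measured by poly(A) RNA sequencing of aggregates of the mouse embryonic stem cell line CGR8 (strain 129), which were kept in serum-free N2B27 medium with Activin-A, Fgf2 and KSR. In the XAV939 arm the aggregates received XAV939 from 0 to 72 h, and in the untreated arm they did not. XAV939 inhibits tankyrase, which stabilises Axin and lowers Wnt/β-catenin signalling. Each day from 3 to 7 gave 4 libraries per arm, which makes 10 groups and 40 libraries, all from 1 cell line. Matrigel is named as absent in the untreated labels and is not named in the XAV939 labels, so XAV939 and a difference in matrigel cannot be told apart. The question the arms address is how neural tissue forms when Wnt signalling is not added and is held down early.

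SoxB and POU3 proteins bind DNA next to each other. In pluripotent cells Sox2 works beside Pou5f1, and in neural progenitors SoxB1 proteins (Sox1, Sox2 and Sox3) work beside POU3 proteins at shared enhancers, among them one of the nestin gene. The SoxB1 proteins keep neural progenitors dividing, and Sox21, a SoxB2 protein, acts against them and favours differentiation. Pou3f1 is known from the primed epiblast as well as from neural tissue, whereas Pou3f2, Pou3f3 and Pou3f4 are known mainly from the neural tube and brain. Nestin is an intermediate filament of neural progenitors that other dividing cells also make, endothelium among them.

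The 8 transcription factor genes each have 1 exon, and Nes has 4 to 5 (GENCODE M21, build GRCm38). Sox1 lies on chromosome 8 (12395295 to 12400126, plus strand), Sox2 on 3 (34650405 to 34652461, plus), Sox3 on X (60891366 to 60893430, minus) and Sox21 on 14 (118233232 to 118237030, minus). Pou3f1 lies on chromosome 4 (124656807 to 124660655, plus), Pou3f2 on 4 (22482780 to 22488366, minus), Pou3f3 on 1 (42695768 to 42703176, plus) and Pou3f4 on X (110814280 to 110817207, plus). Nes lies on chromosome 3 (87971078 to 87980451, plus).

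RefSeq promoter windows (GRCm38.p6, 250 bases before to 50 after the start) were matched for 7 of the 9 genes, all except Sox3 and Pou3f1. They are shown as a description of sequence. Those of Pou3f2, Pou3f3 and Pou3f4 each hold more than 1 CCAAT box, the site of the factor NF-Y. Whether these boxes have a part in the levels of the genes was not tested. The motifs searched, on both strands, were CCAAT, the POU octamer ATGCAAAT, the Sox cores ACAATG and ACAAAG, and the TCF/LEF site ATCAAAG. In the sequences, capitals mark CCAAT (or its reverse ATTGG) and ATCAAAG, and in the Sox1 line the octamer.
Pou3f2, chr4:22488513-22488610, minus strand: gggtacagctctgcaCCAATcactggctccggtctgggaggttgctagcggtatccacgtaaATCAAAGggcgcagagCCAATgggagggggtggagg
Pou3f3, chr1:42695593-42695703, plus strand: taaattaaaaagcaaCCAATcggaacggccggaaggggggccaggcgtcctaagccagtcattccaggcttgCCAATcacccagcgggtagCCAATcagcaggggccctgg
Pou3f4, chrX:110814190-110814214, plus strand: agctaggcagCCAATggagcctaaa
Pou3f4, chrX:110814293-110814317, plus strand: ccgcaccaccATTGGctgtgtttat
Pou3f4, chrX:110814334-110814358, plus strand: tcgcactgcgATTGGcctccgcggg
Sox2, chr3:34649934-34649968, plus strand: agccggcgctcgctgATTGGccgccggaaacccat
Sox1, chr8:12395526-12395555, plus strand: gccagcgcgccATGCAAATcaccgccgccg
The windows of Pou3f3 and Pou3f4 hold 3 CCAAT boxes each, that of Pou3f2 holds 2, those of Sox1 and Sox2 hold 1, and those of Sox21 and Nes hold 0. The Pou3f4 boxes in the lines from 110814293 and 110814334 lie before the RefSeq start. They lie after the GENCODE start of the gene (110814280), inside its transcript. Among 27025 windows of the same length 37.9% hold at least 1 CCAAT box and 12.2% at least 2. The octamer of Sox1, which begins 18 bases after the RefSeq start, is in 1.75% of the windows, and the ATCAAAG of Pou3f2 is in 3.72%. That octamer also lies after the GENCODE start of Sox1 (12395295), inside its transcript. Of the Sox cores ACAAAG was found in the window of Sox2 (18.7% of all windows) and ACAATG in none of the 7 (12.8% of all windows). A match is a description of letters, and binding was not measured.

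Library totals ran from 30197759 to 44086019 counts (median 35737152), and levels are CPM values, which set each library to a common total, with totals scaled by trimmed means of M values (TMM), listed in the order of replicates 1 to 4. All 9 genes were among the 16878 that passed the filter on low counts. Adjusted p-values are from edgeR's quasi-likelihood test over those genes, log2 differences carry their standard error (SE), and a gene is called at an adjusted p below 0.05. Whether the 4 replicates came from separate cultures is not stated in the labels, and the p-values reflect the spread among libraries alone, which may be technical. The labelled cells, differentiated embryonic stem cells, still expressed the pluripotency factor Pou5f1 at 788 CPM (untreated mean) at day 3, and it stood at 4.25 CPM at day 7. Untreated library 1 of day 4 stood apart from the other 3 of its group, with 550 against 11.8 to 24.6 CPM of the mesoderm gene T and 167 against 2.06 to 4.17 CPM of Mixl1.

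At day 3 the aggregates already expressed Sox2, Sox3, Pou3f1 and Nes, while Sox1, Sox21 and the other POU3 genes were close to 0. Per kilobase of exon, the scale on which genes are compared here, the untreated mean was 43.6 ± 2.05 CPM for Nes, 11.2 ± 2.55 for Sox2, 10.8 ± 1.11 for Pou3f1 and 8.4 ± 1.62 for Sox3 (SD, n = 4). Sox2, Pou3f1 and Sox3 overlapped in this order. The other 5 genes had means of at most 0.0612 CPM per kilobase, and Pou3f3 rested on 0 to 3 counts per library. By day 7 the order of the untreated means was Sox2 (32.1 ± 8.92), Nes (31.7 ± 8.89), Sox21 (12.3 ± 4.50), Sox3 (11.3 ± 4.31), Pou3f2 (8.12 ± 3.45), Sox1 (4.67 ± 0.942), Pou3f3 (3.93 ± 1.67), Pou3f4 (1.76 ± 0.779) and Pou3f1 (0.519 ± 0.198). In this order Sox2 and Nes, Sox21 and Sox3, Sox3 and Pou3f2, and Sox1 and Pou3f3 differed by less than the larger SD of the pair.

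**Figure D1:**
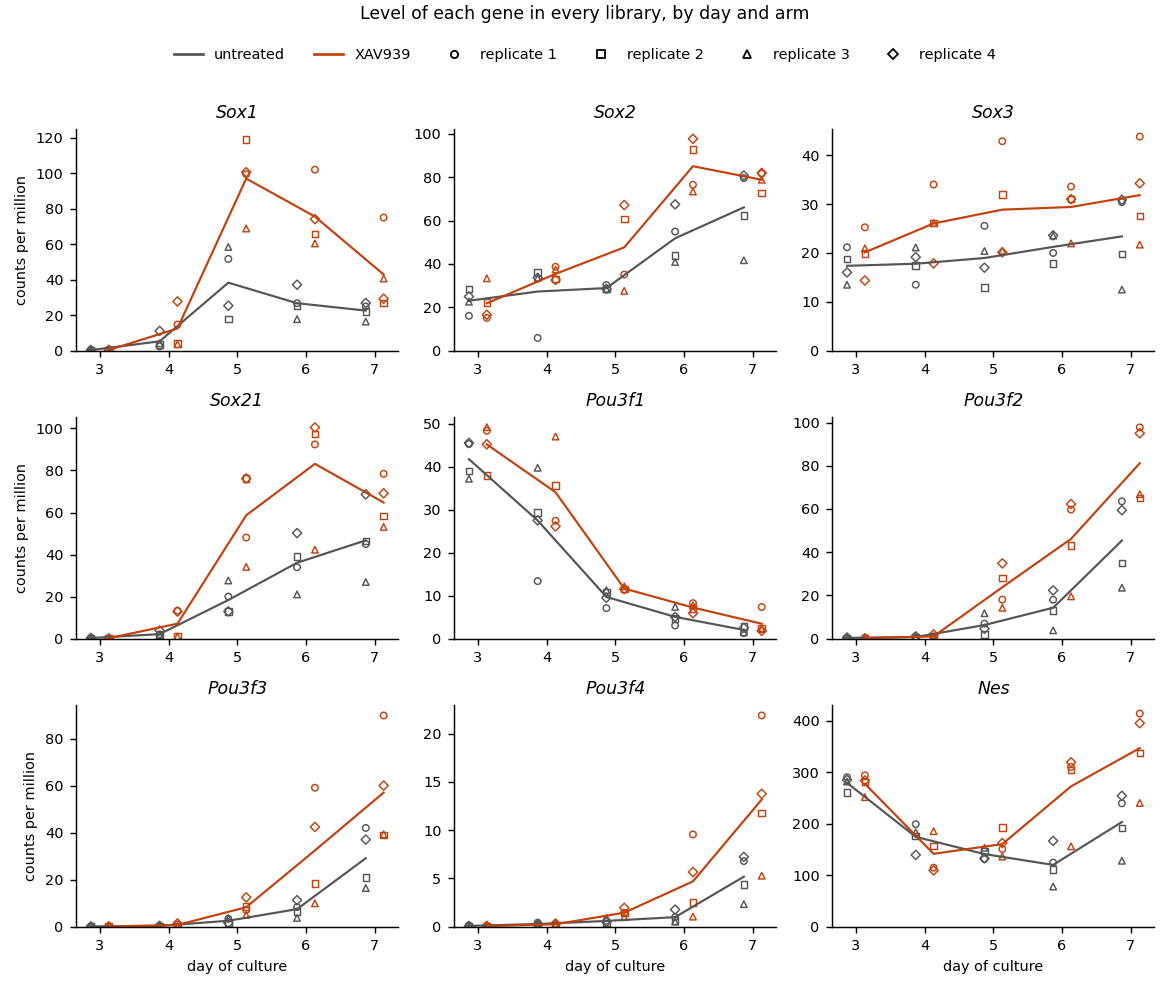
Level of each gene in CPM (y axis, linear, from 0) against the day of culture (x axis) in untreated (grey) and XAV939 (orange) libraries; symbols are the replicates, 4 a group, and lines join the group means. Sox1 has its highest mean at day 5 in both arms (38.3 and 97.1 CPM), Pou3f1 is highest at day 3, and Pou3f2, Pou3f3 and Pou3f4 are highest at day 7.

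Sox1, an early marker of neural ectoderm, rose between days 3 and 5 and not later. In untreated libraries it stood at 0.198, 0.243, 0.205 and 0.345 CPM at day 3, at 2.36, 3.25, 4.08 and 11.1 at day 4, and at 51.7, 17.7, 58.5 and 25.3 at day 5. The rise was 4.38 ± 0.64 on the log2 scale from day 3 to day 4 (adjusted p = 2.01e-06) and 2.88 ± 0.49 from day 4 to day 5 (adjusted p = 5.67e-05). After day 5 its untreated mean went to 26.7 ± 8.01 CPM at day 6 and 22.5 ± 4.55 at day 7, and neither step was called (adjusted p = 0.463 and 0.753). In the XAV939 arm the course had the same shape, with 12.4 ± 11.4 CPM at day 4, 97.1 ± 20.8 at day 5, 75.6 ± 18.5 at day 6 and 42.9 ± 22.2 at day 7. By day 7 the mean had come to 58.8% of its day 5 value without XAV939 and to 44.2% with it.

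Sox21 rose from the same start as Sox1 and did not come down in untreated aggregates. Its untreated mean was 0.233 ± 0.0735 CPM at day 3, 2.10 ± 1.19 at day 4, 18.3 ± 7.05 at day 5, 36.1 ± 12.1 at day 6 and 46.7 ± 17.1 at day 7. The steps to day 4 (log2 difference 3.15 ± 0.71, adjusted p = 0.000661) and to day 5 (3.12 ± 0.54, adjusted p = 7.01e-05) were called and those after day 5 were not. In the XAV939 arm the mean reached 58.7 ± 21.1 CPM at day 5, 70.5% of its highest value, whereas in the untreated arm day 5 stood at 39.2% of the highest.

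Sox2 and Sox3 were present from the start, and Sox2 rose in both arms while Sox3 moved little. Sox2 went from 16.0, 28.4, 22.5 and 24.9 CPM at day 3 to 79.6, 62.3, 41.7 and 80.8 at day 7 in untreated libraries. The log2 difference was 1.52 ± 0.32 (adjusted p = 9.56e-05), and in the XAV939 arm it was 1.86 (adjusted p = 5.93e-06). The fit of group means called no step between neighbouring days in either arm. With the replicate number as a block, the day 5 to 6 step was called in both arms (untreated 0.82 ± 0.18, adjusted p = 0.0296). So was the day 3 to 4 step with XAV939. At day 4 its untreated libraries stood at 5.82, 36.1, 33.5 and 33.6 CPM, and the low one is the library with high T. Sox3 had means between 17.4 and 23.4 CPM in untreated and between 20.1 and 31.8 CPM in XAV939 groups. Its difference of day 7 from day 3 was 0.43 ± 0.26 (adjusted p = 0.144) in the untreated arm and 0.66 ± 0.26 (adjusted p = 0.0247) in the XAV939 arm. The second was lost without day 3 library 4, day 7 library 1 or day 7 library 4 (adjusted p = 0.0969, 0.128 and 0.0511).

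Within the POU3 family Pou3f1 gave way to Pou3f2, Pou3f3 and Pou3f4. In untreated libraries Pou3f1 stood at 45.2, 39.0, 37.2 and 45.5 CPM at day 3, at 13.4, 29.3, 39.7 and 27.5 at day 4, at 7.08, 10.9, 11.3 and 9.47 at day 5, and at 1.27, 2.80, 1.43 and 2.49 at day 7. Every library of day 5 was below every library of day 4. The fall was called from day 4 to day 5 (log2 difference -1.5 ± 0.31, adjusted p = 0.000676), to day 6 (-0.94 ± 0.32, adjusted p = 0.030) and to day 7 (-1.33 ± 0.33, adjusted p = 0.00719), and came to -4.38 ± 0.36 over the whole course.

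Pou3f2 had the highest untreated means of the later group. Its untreated libraries stood at 0.230, 0.668, 0.877 and 0.998 CPM at day 4, at 6.87, 1.88, 11.7 and 4.50 at day 5, at 18.0, 12.9, 3.81 and 22.3 at day 6, and at 63.5, 35.0, 23.5 and 59.5 at day 7. The called steps were day 4 to day 5 (3.16 ± 0.53, adjusted p = 5.67e-05) and day 6 to day 7 (1.67 ± 0.45, adjusted p = 0.0117). With the replicate number as a block, the step from day 3 to day 4 was called too (1.15 ± 0.34, adjusted p = 0.0227). Pou3f3 rose at every step after day 4, from 0.252 ± 0.0464 CPM to 2.47 ± 1.13, 7.41 ± 3.19 and 29.1 ± 12.3 (adjusted p = 0.000167, 0.0121 and 0.00345). Pou3f4 had means of 0.261, 0.581 and 0.973 CPM at days 4, 5 and 6, with no called step in the fit of group means. At day 7 its mean was 5.17 ± 2.28 CPM (2.40 ± 0.49, adjusted p = 0.00123). With the replicate number as a block, its day 4 to 5 step was called (1.17 ± 0.33, adjusted p = 0.0379). Per kilobase its day 4 mean was above that of Pou3f3 (0.0891 and 0.034 CPM). The order in which the 3 genes rose was not tested.

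With XAV939 all 3 genes had called rises by day 4, but none was called different between the arms at day 3 or day 4. The day 4 means of Pou3f2, Pou3f3 and Pou3f4 were 1.01, 0.659 and 0.235 CPM with XAV939 and 0.693, 0.252 and 0.261 without. Their day 3 means were 0.144, 0.0486 and 0.0383 CPM with XAV939 and 0.307, 0.0399 and 0.0686 without. From day 3 to day 4 Pou3f2 (2.76 ± 0.75, adjusted p = 0.00362), Pou3f3 (3.73 ± 0.94, adjusted p = 0.00155) and Pou3f4 (2.51 ± 0.94, adjusted p = 0.0266) rose in that arm, from 0 to 3 counts per library for the latter 2 genes. The Pou3f4 call there was lost without day 3 library 2 or 3 or day 4 library 1 or 4 (adjusted p up to 0.0868). From day 4 to day 5 the rises were 4.56 ± 0.53, 3.65 ± 0.53 and 2.60 ± 0.58, all called. Pou3f3 rose again to day 6 (1.98 ± 0.45, adjusted p = 0.00181), as did Pou3f4 (1.71 ± 0.48, adjusted p = 0.0111), the latter not without day 6 library 1 (0.137) or day 5 library 3 (0.0504). Whether these steps differed between the arms is the difference of effects tested further on.

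Per kilobase Pou3f1 made up 99.2% ± 0.226 (SD, n = 4) of the summed POU3 level at day 3 without XAV939 and 99.6% ± 0.151 with it. At day 5 its share was 49.4, 81.0, 50.5 and 67.7% in the untreated libraries and 38.8, 31.0, 47.1 and 25.8% in the XAV939 libraries, with no overlap. An exact permutation test of that difference (two-sided, 4 against 4, without the pairing, and added after the shares were seen) gave p = 0.0286, the smallest this design allows, and 0.0715 when adjusted over the 5 days. The small difference at day 3, in the other direction, reached the same p. At days 4, 6 and 7 the exact permutation p was 0.771, 0.229 and 0.343. At day 6 the share was 14.5, 26.5, 58.6 and 17.6% without and 8.89, 14.2, 27.9 and 7.52% with XAV939, lower in all 4 pairs although the groups overlapped. By day 7 Pou3f2 held 56.3% ± 1.13, Pou3f3 27.4% ± 1.92, Pou3f4 12.1% ± 1.29 and Pou3f1 4.12% ± 2.03 in untreated libraries. With XAV939 the day 7 shares were 54.0% ± 6.75, 27.3% ± 2.79, 15.6% ± 4.59 and 3.07% ± 1.37, in the same order. The ranges of the first 3 shares did not overlap in either arm.

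**Figure D2:**
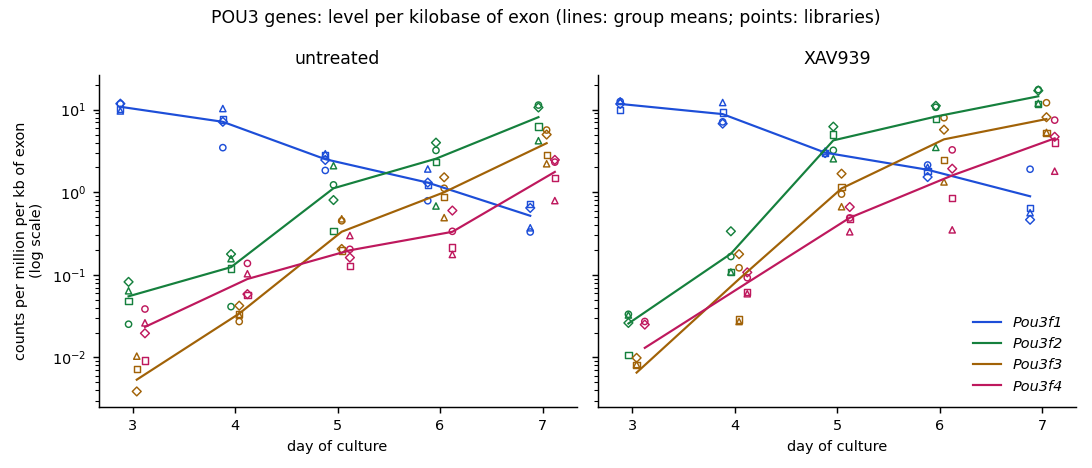
CPM per kilobase of exon of the 4 POU3 genes (y axis, log scale) against the day of culture (x axis), untreated libraries on the left and XAV939 libraries on the right; points are libraries, 4 a group, lines join group means, and libraries with 0 counts cannot be drawn. The mean of Pou3f2 passes that of Pou3f1 between days 5 and 6 without XAV939 and between days 4 and 5 with it.

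Nes fell first and rose later. Its untreated libraries stood at 290, 261, 282 and 285 CPM at day 3, at 199, 176, 184 and 139 at day 4, at 124, 111, 77.8 and 166 at day 6, and at 240, 192, 128 and 254 at day 7. The fall to day 4 (-0.68 ± 0.21, adjusted p = 0.0124) and the rise to day 7 (0.76 ± 0.21, adjusted p = 0.0153) were called. The fall was lost without day 4 library 4 (adjusted p = 0.0549), and the rise without day 6 library 3, day 7 library 1 or day 7 library 4 (adjusted p = 0.0981, 0.0648 and 0.0727). In the XAV939 arm Nes had its lowest mean at day 4 (142 ± 36.3 CPM) and rose from day 5 to day 6 (0.77 ± 0.21, adjusted p = 0.0101). From day 3 to day 7 the untreated range went from 261–290 to 128–254 CPM, with no overlap, a difference of -0.46 ± 0.21 that just missed the threshold (adjusted p = 0.0539). It was called lower by DESeq2, with relative log expression size factors and with only these 8 libraries fitted. With XAV939 the difference was 0.32 ± 0.21 (adjusted p = 0.171).

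Counted by step, 3, 5, 2 and 5 of the 9 genes changed in the untreated arm from day 3 to 4, 4 to 5, 5 to 6 and 6 to 7, against 32.7%, 18.7%, 19.8% and 12.2% of all genes tested. In the XAV939 arm 6, 6, 3 and 2 changed, against 38%, 31%, 17% and 7.16%. From day 3 to day 7, 7 of 9 changed without XAV939 and 8 of 9 with it, against 67.2% and 70.9% of all genes, so this share is close to the background. In the XAV939 arm, replicate numbers paired the libraries of neighbouring days from day 4 on (correlations of their deviations 0.119 to 0.635). With the number as a block, 7 genes changed from day 5 to 6 and 5 from day 6 to 7, against 19.2% and 28.6% of all genes in the same fits. Under it Sox2 (0.94 ± 0.15, adjusted p = 0.00286), Sox21 (0.52 ± 0.13, adjusted p = 0.0199) and Pou3f2 (0.93 ± 0.20, adjusted p = 0.011) rose from day 5 to 6, and Pou3f1 fell (-0.68 ± 0.15, adjusted p = 0.0137). From day 6 to 7 Sox1 fell (-0.90 ± 0.18, adjusted p = 0.0161), and Pou3f2 (0.92 ± 0.22, adjusted p = 0.036) and Nes (0.38 ± 0.07, adjusted p = 0.00553) rose. In the untreated arm the replicates did not all pair between days. There the block gave 4, 7, 2 and 4 called genes from day 3 to 4, 4 to 5, 5 to 6 and 6 to 7. The shares of all genes in those fits were 34.1%, 27.7%, 9.77% and 4.81%.

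The 2 calls from day 5 to 6 without XAV939, Pou3f1 and Pou3f3, lay near the threshold. With 1 library left out the log2 differences stayed between -1.18 and -0.76 for Pou3f1 and between 1.32 and 1.82 for Pou3f3. Pou3f1 was lost without day 5 library 2, 3 or 4 or day 6 library 1, 2 or 4 (adjusted p up to 0.115), and Pou3f3 without day 5 library 2 or 4 or day 6 library 4 (up to 0.0554). Without day 6 library 3, which was low in Pou3f2, Pou3f3 and Nes, 4 genes were called at that step. From day 6 to 7 the untreated calls of Pou3f1, Pou3f2 and Nes were lost without that library (adjusted p = 0.0587, 0.059 and 0.0981), and those of Pou3f3 and Pou3f4 were not lost without any 1 library. Pou3f2 was lost there also without day 7 library 1 (adjusted p = 0.0518). With XAV939 the day 6 to 7 calls of Pou3f1 and Pou3f4 were each lost without any of 6 of the 8 libraries (adjusted p up to 0.157 and 0.183).

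The arms were compared in pairs of libraries with the same replicate number within a day. Over the 5 days together, 7 of the 9 genes differed between the arms (F test, adjusted p from 6.11e-06 for Nes to 0.0348 for Sox3), against 13.4% of all genes. Sox2 (adjusted p = 0.205) and Pou3f1 (0.340) were not called. At days 3 and 4 none of the 9 was called, and 0% of all genes were called higher at either day. At an unadjusted p below 0.05 there were 1313 genes at day 3 and 1660 at day 4, among them 0 and 5 of the 9, and DESeq2 called none of the 9 at either day.

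At day 3, the end of the labelled treatment, the 9 log2 differences lay between -1.02 (Pou3f2) and 0.23 (Pou3f3), and none was called. Sox1 stood at 0.186, 0.180, 0.183 and 0.439 CPM with XAV939, which overlaps the untreated range. At day 4 the means of 7 genes were higher with XAV939, with a median log2 difference of 0.53 over the 9 genes and 0.00 over all genes. XAV939 libraries 1 and 4 of day 4 had 14.6 and 27.7 CPM of Sox1 against 3.93 and 3.54 in libraries 2 and 3, and 13.3 and 12.8 CPM of Sox21 against 1.25 and 0.951. The Sox2 difference at day 4 was 0.58 ± 0.34 with all pairs and -0.01 without pair 1, which holds the untreated library with high T.

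At day 5, 5 of the 9 genes were higher with XAV939, Pou3f2, Pou3f3, Sox21, Sox1 and Pou3f4, against 2.93% of all genes. Pou3f2 stood at 6.87, 1.88, 11.7 and 4.50 CPM without XAV939 and at 18.0, 27.9, 14.2 and 34.8 with it, and the groups did not overlap. Its log2 difference was 2.07 ± 0.39 (4.21-fold, adjusted p = 0.00315). The pair ratios were 2.62, 14.8, 1.21 and 7.74, so pair 3 moved least. Pou3f3 stood at 3.35, 1.46, 3.53 and 1.53 CPM without and 7.04, 8.53, 4.95 and 12.4 with XAV939 (1.75 ± 0.34, adjusted p = 0.00368). Pou3f4 stood at 0.597, 0.377, 0.876 and 0.474 CPM without and 1.43, 1.41, 0.973 and 1.94 with XAV939 (1.31 ± 0.34, adjusted p = 0.021). Neither gene's groups overlapped. In bulk RNA, more cells of a type and more RNA per cell cannot be told apart, here and in what follows.

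Of the SoxB genes at day 5, Sox21 stood at 20, 12.8, 27.6 and 12.9 CPM without XAV939 and at 48.1, 76.2, 34.1 and 76.2 with it (1.68 ± 0.36, adjusted p = 0.00676). Sox1 had 99.6, 119, 68.9 and 101 CPM with XAV939, all above the highest untreated library (58.5 CPM), and a difference of 1.47 ± 0.37 (2.78-fold, adjusted p = 0.0184). Pair 3 again had the smallest ratio for both, 1.24 and 1.18. Sox2 (0.63 ± 0.32, adjusted p = 0.278), Sox3 (0.58 ± 0.21, 0.107), Pou3f1 (0.28 ± 0.29, 0.626) and Nes (0.18 ± 0.11, 0.394) were not called. Pou3f1 had a narrow range with XAV939 (11.4 to 12.1 CPM), just above the untreated range (7.08 to 11.3 CPM). In all, 6 of the 9 genes had groups that did not overlap, against 3.44% of all genes, and 7 were higher in all 4 pairs, against 18.6%.

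The day 5 calls of Sox1, Sox21 and Pou3f4 depended on single pairs and on the pairing, and that of Sox1 also on the filter (adjusted p = 0.0638 with none). Without pair 2 the adjusted p was 0.187, 0.0806 and 0.162, without pair 4 it was 0.136, 0.0701 and 0.173, and without pair 1 that of Pou3f4 was 0.0579. Without the replicate block it was 0.124, 0.0562 and 0.216. Pou3f2 and Pou3f3 were called without any 1 pair and without the block. When only the 8 libraries of day 5 were fitted, none of the 5 was called (adjusted p 0.0945 to 0.126). In that fit 91 of all genes were called higher, against 495 with all 40 libraries fitted. Sox3 was called without pair 3 (adjusted p = 0.048).

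At day 6, 6 of the 9 genes were higher with XAV939, against 4.34% of all genes: the 5 of day 5 and Nes. Nes stood at 124, 111, 77.8 and 166 CPM without XAV939 and at 310, 305, 156 and 319 with it. The untreated library 4 was above the XAV939 library 3, so the groups overlapped, and within each pair the ratio was between 1.92 and 2.75. The difference was 1.18 ± 0.11 (2.27-fold, adjusted p = 2.79e-06), and it was called under every alternative run. Pou3f4 stood at 0.986, 0.628, 0.517 and 1.76 CPM without and 9.55, 2.51, 1.03 and 5.65 with XAV939 (2.07 ± 0.32, 4.21-fold, adjusted p = 0.0003). Its pair ratios, 9.68, 3.99, 1.99 and 3.21, spread more than those of Nes.

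Pou3f3 stood at 8.29, 6.46, 3.65 and 11.2 CPM without and 59.1, 18.2, 9.89 and 42.4 with XAV939 at day 6 (1.94 ± 0.31, adjusted p = 0.00053). Pou3f2 stood at 59.7, 43.1, 19.5 and 62.3 CPM with XAV939 (1.81 ± 0.36, adjusted p = 0.00275 against the untreated libraries given above). In both genes library 3 was the lowest of its arm, in both arms. Pou3f2, Pou3f3, Pou3f4 and Nes were called without any 1 pair and without the block, and Pou3f4 was lost when only the day 6 libraries were fitted (adjusted p = 0.0617).

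Sox1 at day 6 stood at 26.7, 25.2, 17.7 and 37.2 CPM without and 102, 65.7, 60.5 and 74.2 with XAV939, with no overlap (1.52 ± 0.36, 2.87-fold, adjusted p = 0.00894). Sox21 stood at 34.0, 39.1, 21.0 and 50.2 CPM without and 92.4, 97.5, 42.3 and 100 with XAV939 (1.19 ± 0.34, adjusted p = 0.0282). The call of Sox1 was lost without the block (adjusted p = 0.0503), without pair 1 (0.0556) and without pair 3 (0.0519), and that of Sox21 without the block (0.170), without any 1 of the 4 pairs (0.0583 to 0.108), with no filter (0.0813) and by DESeq2 (0.0504). Sox2 had 76.5, 92.7, 73.4 and 97.8 CPM with XAV939, all above the untreated range of 40.9 to 67.5, but was not called (0.73 ± 0.32, adjusted p = 0.156), nor were Sox3 (0.46 ± 0.21, 0.172) and Pou3f1 (0.56 ± 0.30, 0.256). At this day 2 of the 9 genes, Sox1 and Sox2, had groups that did not overlap, against 2.1% of all genes, and 8 were higher in all 4 pairs, against 12.5%.

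At day 7, 2 of the 9 genes were higher with XAV939, Nes and Pou3f4, against 0.942% of all genes. Nes stood at 240, 192, 128 and 254 CPM without and 414, 338, 240 and 396 with XAV939, a difference of 0.79 ± 0.11 (1.73-fold, adjusted p = 0.00191) with pair ratios of 1.55 to 1.88. Pou3f4 stood at 6.79, 4.34, 2.32 and 7.22 CPM without and 21.9, 11.8, 5.27 and 13.8 with XAV939 (1.31 ± 0.27, 2.48-fold, adjusted p = 0.0194). Both groups overlapped, since replicate 3 was low in both arms. The call of Pou3f4 was lost without any 1 of the 4 pairs (adjusted p 0.062 to 0.119). Without the block neither was called (adjusted p = 0.125 for Nes and 0.253 for Pou3f4). When only the 8 libraries of day 7 were fitted, 5 genes were called, with Sox3 (adjusted p = 0.0405), Pou3f2 (0.0196) and Pou3f3 (0.00276) added. In that fit 355 of all genes were called higher, against 159 with all 40 libraries fitted.

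The other day 7 differences were 0.99 ± 0.29 for Pou3f3 (adjusted p = 0.0835), 0.92 ± 0.35 for Pou3f2 (0.196), 0.83 ± 0.36 for Sox1 (0.302) and 0.30 to 0.63 for Sox2, Sox3, Sox21 and Pou3f1. Pou3f1 stood at 7.32, 2.49, 2.17 and 1.79 CPM with XAV939, and its difference of 0.63 became -0.04 without pair 1. All 9 differences were positive at days 5, 6 and 7, with medians of 1.31, 1.19 and 0.79 beside 0.01, 0.00 and -0.01 over all genes. At day 7 Sox1 and Pou3f2, 2 of the 9 genes, had groups that did not overlap (Sox1 by a margin under the rounding, 26.8 CPM in both), against 2.09% of all genes, and 8 were higher in all 4 pairs, against 12.7%.

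**Figure D3:**
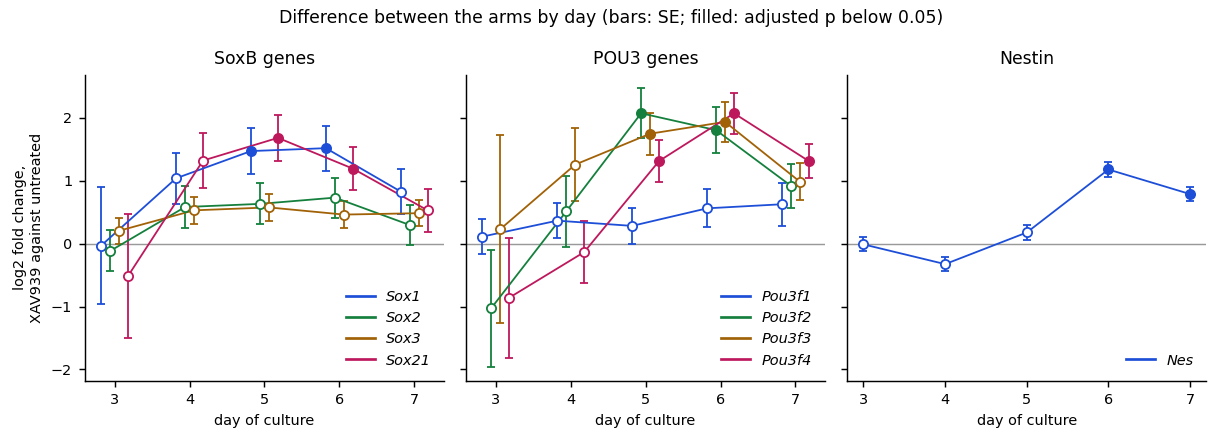
Log2 fold change of XAV939 against untreated (y axis) by day of culture (x axis) for the SoxB genes, the POU3 genes and nestin; points are estimates of the paired fit over 4 pairs a day, bars their SE, and filled points have an adjusted p below 0.05. Filled points are Sox1, Sox21, Pou3f2, Pou3f3 and Pou3f4 at days 5 and 6, Nes at days 6 and 7, and Pou3f4 at day 7.

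**Figure D4:**
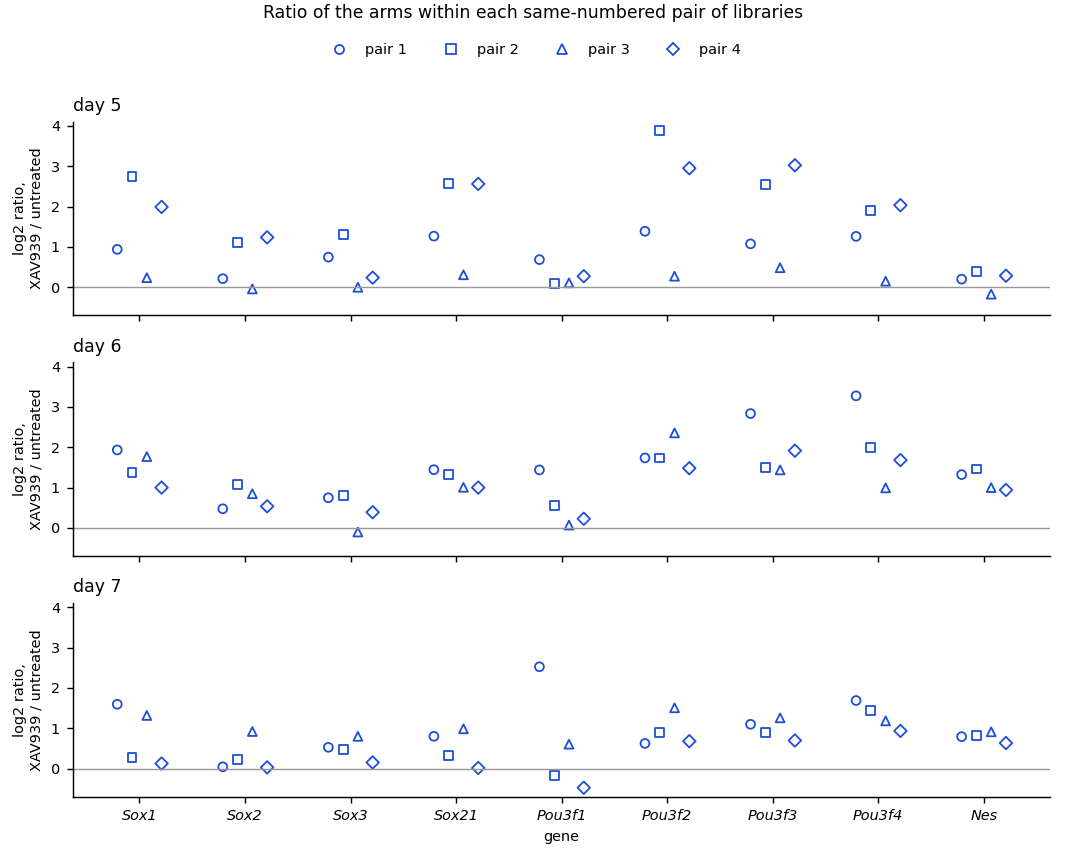
Log2 ratio of XAV939 to untreated within each pair of libraries with the same replicate number (y axis) for the 9 genes (x axis) at days 5, 6 and 7; each symbol is 1 pair. At day 5 pair 3 lies near 0 for most genes, while at day 6 the ratios of Nes, before the log, lie between 1.92 and 2.75 in all 4 pairs.

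Whether the effect itself changed from day to day was tested as the difference of 2 days' effects. From day 5 to day 6 the effect on Nes grew by 1.0 ± 0.16 (adjusted p = 0.0206), 1 of the 9 genes against 0.0652% of all genes. That call was lost without the block (adjusted p = 0.626) and with only the libraries compared (0.393). It was lost too without pair 3 of day 5 (0.0557) and without pair 1 or 2 of day 6 (0.0517 and 0.0749). For the changes from day 3 to 4, 4 to 5, 6 to 7 and 5 to 7 none of the 9 was called, against 0%, 0.486%, 0% and 0.118% of all genes. At an unadjusted p below 0.05 they held 0, 3, 2 and 3 of the 9 genes. Over all genes tested the same threshold gave 1492, 2018, 724 and 1707 genes. DESeq2 called 0, 0, 0 and 1 of the 9, and no share of all genes is given for it. The smaller number of calls at day 7 than at day 6 is therefore not shown to be a smaller effect: for Sox1 the effect at day 7 minus that at day 6 was -0.69 ± 0.50 (adjusted p = 0.907), and for Pou3f3 -0.95 ± 0.42 (0.907).

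Several of these genes share their locus with long noncoding RNAs. Sox1ot and Sox2ot lie over Sox1 and Sox2 on the same strand with no shared exon base, and both were higher with XAV939. Sox1ot stood at 2.36, 1.44, 3.25 and 1.5 CPM without and 4.83, 9.55, 3.61 and 11.4 with XAV939 at day 5 (1.71 ± 0.40, adjusted p = 0.0112), and was called at day 6 too (1.82 ± 0.37, adjusted p = 0.00321). Sox2ot differed by 1.34 ± 0.32 at day 5 (adjusted p = 0.013) and 1.38 ± 0.29 at day 6 (adjusted p = 0.00442), whereas Sox2 itself was called at neither day.

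Pantr1, which starts beside Pou3f3 and runs the other way, differed by 1.95 ± 0.37 at day 5 (adjusted p = 0.00356) and 1.55 ± 0.32 at day 6 (adjusted p = 0.00384). Gm20646, over Pou3f3 on the same strand, had at most 0.915 CPM and was called at day 6 (1.77 ± 0.54, adjusted p = 0.0478). Gm4675 is antisense to Sox21 and shares 713 exon bases with it (day 5 difference 0.93 ± 0.27, adjusted p = 0.0414), and Gm2164 is antisense to Pou3f1 and shares 330 (called at no day). The kit marks strand but the strand setting of the counting is not given in the sources used here, so reads of Sox21 and Pou3f1 cannot be told apart from those of these 2 genes. Sox21 was at least 12.8 CPM in every library of day 5 on, where Gm4675 was at most 6.17.

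The genes whose group means followed each member most closely were found over the 10 groups, as the root-mean-square difference of centred log2 CPM. For Pou3f2 and Pou3f3 they were the same 3 genes, BC024139, Pantr1 and Nr2f2 (0.297 to 0.533), and for Pou3f4 they included Mir100hg and Lgi4 (0.227 and 0.45). Those of Sox1 were B230323A14Rik, the netrin receptor gene Dcc and Zic1, none nearer than 0.65, and those of Sox21 were Peg12, Tmem132c and Mylk (0.382 to 0.564). Pou3f1 was followed by Phf11d, 2400006E01Rik and Rims4 (0.251 to 0.266) and Nes by Hdac9, Pde1b and Elavl2 (0.221 to 0.242). For Sox2 the nearest was Kcnab2 (0.139) and for Sox3 it was Evc (0.124). The smaller a gene's own range over the groups, the smaller these differences can be, and that range was 0.845 log2 units for Sox3, 1.55 for Nes, 2.02 for Sox2 and at least 4.53 for the others. Among the 9 themselves Pou3f2 and Pou3f3 were nearest to each other, as were Sox1 and Sox21, and Sox2 and Sox3.

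Of 14 other Sox genes tested, 1 was higher and 1 lower at day 5, 2 and 2 at day 6, and 0 and 1 at day 7. At day 5 the endoderm gene Sox17 was lower (-2.48 ± 0.36, adjusted p = 0.000583) and Sox6 higher (1.11 ± 0.26, adjusted p = 0.0109), and at day 6 Sox11, a gene of young neurons, was higher (0.49 ± 0.10, adjusted p = 0.00337). Of 9 other POU genes tested 0 were called at days 5 and 6 and 1 at day 7. Of 27 other neural progenitor genes 5, 5 and 1 were higher at days 5, 6 and 7 and 0 lower. At day 5 they included Nr2f1 (2.60 ± 0.49, adjusted p = 0.00307) and Rfx4 (1.2 ± 0.34, adjusted p = 0.0389), and at day 6 Zic1 (2.2 ± 0.52, adjusted p = 0.0091) and the progenitor gene Fabp7 (1.46 ± 0.38, adjusted p = 0.0159). Of 17 neuronal differentiation genes 2, 9 and 5 were higher and 2, 1 and 0 lower. At day 6 Dcx, of migrating neurons, differed by 2.87 ± 0.39 (adjusted p = 9.78e-05).

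Markers of several other cell types were lower in the same libraries, while of 8 neural crest markers 1, 2 and 1 were higher and 1, 2 and 1 lower at days 5, 6 and 7. Pluripotency genes were lower for 2, 3 and 1 of 15 and higher for 0, and forebrain and midbrain genes were higher for 1, 2 and 0 and lower for 1, 3 and 0 of 15. Endoderm and gut markers were lower for 9, 7 and 6 of 10 genes tested at days 5, 6 and 7, and surface ectoderm markers for 5, 3 and 2 of 8, against 4.41%, 5.9% and 1.32% of all genes. Paraxial mesoderm markers were lower for 7, 3 and 0 of 11, neuromesodermal and caudal epiblast markers for 5, 1 and 0 of 11, and endothelium markers for 0, 2 and 2 of 8. The summed endoderm and gut markers ran from 302 to 549 CPM without and 120 to 207 with XAV939 at day 5, and from 508 to 1530 and 265 to 432 at day 6. The paraxial mesoderm sum at day 5 ran from 18.7 to 379 CPM without and from 9.02 to 19.9 with XAV939. Of these lists Krt14 was at 0 in both arms at day 6, and Krt14 and Msgn1 in the XAV939 arm at day 7. Hindbrain and spinal cord genes were lower for 8 of 14 and higher for 1 at day 5, and called for 0 at days 6 and 7. The part of these shifts in the differences of the 9 genes was not tested. The endothelial sum ran from 9.79 to 78.7 CPM without and 6.80 to 14.0 with XAV939 at day 6, and from 46.7 to 169 and 27.3 to 40.1 CPM at day 7.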

How the data were processed

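Poly(A) RNA libraries (stranded TruSeq kit, read in pairs) were sequenced and demultiplexed with bcl2fastq 2.20.0, with mm10 as the genome build, per the submitters' processing notes. The authors deposited a table of raw counts per gene for all 40 libraries. No source used here names the aligner, counter, annotation or strand setting. Every library column was matched to its sample by name. Of the gene IDs 26857 were in GENCODE M21 and 49 were not, and 508 genes were 0 throughout. Counts were filtered (at least 10 in enough libraries and 15 in all), scaled by TMM and tested with edgeR 4.0.16 (quasi-likelihood, R 4.3.3) over 16878 genes with Benjamini-Hochberg adjustment.

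XAV939 effects were fitted over all 40 libraries with the day and replicate number as a block (15 residual degrees of freedom), and steps between days with the 10 groups alone (30). The pairing by replicate number within a day was set by rule and then checked on the data. Libraries of the same day and number deviated together from their group means in all 20 pairs (correlation 0.145 to 0.523). Each correlated best with its own number. Between days, same-numbered libraries correlated positively at all replicates only in the XAV939 arm from day 4 on. In the untreated arm replicate 3 did not (-0.0122 from day 4 to 5 and -0.00377 from day 6 to 7). Replicates 1, 2 and 4 did at these steps (0.292 to 0.435 and 0.227 to 0.439). No same-group libraries agreed within sampling noise (smallest chi-square per gene 8.14 over 60 pairs). On simulated counts for day 5, 69% of changes of 1 and 92% of changes of 2 on the log2 scale were recovered (100 genes each, 16748 genes tested). The simulated libraries were drawn independently, without the shared deviations of real pairs, and only genes above a minimum mean count were changed. Recovery in the real libraries may therefore differ.

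Named genes were the 9 members, the overlapping genes and Pantr1, the nearest profiles by root-mean-square difference, and list genes with the smallest p among the called. T, Mixl1 and Pou5f1 were named after their values were seen. The members and lists were chosen with earlier results of these data known. Alternatives were size factors by relative log expression, no filter, a filter of 5 CPM in 4 libraries, DESeq2 1.42.0, no replicate block, only the libraries compared, and each replicate left out.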

Additional observations from a re-analysis of the deposited data

Results flagged for a closer look

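In 7 of 90 groups of 4 libraries, 1 library lay far from the other 3 by Dixon's test, where chance gives about 1 in 20. Sox1 was 0.439 CPM in XAV939 library 4 of day 3, against 0.180 to 0.186 in the others. Sox2 was 5.82 CPM in untreated library 1 of day 4, against 33.5 to 36.1, and 30.2 CPM in untreated library 1 of day 5, against 28.3 to 28.5. Sox21 was 42.3 CPM in XAV939 library 3 of day 6, against 92.4 to 100.5, and Nes was 156 CPM in the same library, against 305 to 319. Pou3f1 was 12.1 CPM in XAV939 library 3 of day 5, against 11.4 to 11.5, and 7.32 CPM in XAV939 library 1 of day 7, against 1.79 to 2.49.

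The effect of XAV939 on Nes was larger at day 6 than at day 5 by 1.0 on the log2 scale, by a test of the difference itself. That call was lost under 5 of 14 alternatives. Among them were no replicate block (adjusted p = 0.626) and only the libraries compared (adjusted p = 0.393).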

How the results depend on the processing

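Of the 13 called XAV939 differences, 3 were called under every alternative run (Pou3f2, Pou3f3 and Nes at day 6) and 10 were lost under at least 1, none with a changed sign. Of 47 called steps between days 36 were called under every alternative in which they were tested. Among them the rise of Pou3f3 from day 3 to 4 with XAV939 was tested under 12 alternatives, where most steps had 14. Without the replicate block, 2 genes were called at day 5 and 0 at day 7, and 0 for the change in effect from day 5 to day 6. With only the libraries compared the counts were 0, 5 and 0, and 1 for the change from day 5 to day 7, as with DESeq2. Leaving out 1 replicate gave 2 to 6 called genes at day 5, 4 to 5 at day 6, 1 to 1 at day 7 and 0 to 1 for the change from day 5 to day 6. Over all genes at day 5, 495 were higher and 745 lower, and without the block 154 and 241. At day 7, 159 were higher and 222 lower, and without the block 0 and 1. With only the libraries compared, 91 of all genes were higher at day 5 and 355 at day 7. Leaving out 1 replicate gave 93 to 617 higher at day 5, against 495 with all libraries. At day 6 it gave 366 to 648, against 732, and at day 7 it gave 12 to 50, against 159.

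For the steps, a replicate block across the days gave 7 called genes in the XAV939 arm from day 5 to 6 and 5 from day 6 to 7. In the untreated arm it gave 4, 7, 2 and 4 from day 3 to 4, 4 to 5, 5 to 6 and 6 to 7. From day 6 to 7 no filter and only the libraries compared gave 0 with XAV939, leaving out a replicate gave 0 to 1, and in the untreated arm only the libraries compared gave 2 and leaving out a replicate 2 to 5. Untreated day 3 to 4 gave 5 with DESeq2 and 2 to 4 without a replicate, and untreated day 5 to 6 gave 0 to 4 without a replicate and XAV939 day 5 to 6 gave 2 to 4. Apart from the block, the shares of all genes are not given for these alternatives of the steps.

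Reversed differences were all uncalled. At day 3 Nes became 0.00188 with other size factors or DESeq2 and 0.00367 with only the libraries compared, and without a replicate Sox1 ranged from -0.22 to 0.0943, Sox2 from -0.35 to 0.0515, Pou3f3 from -0.086 to 0.60 and Nes from -0.0382 to 0.0387. At day 4 Sox2 ranged from -0.00536 to 0.85 and Pou3f4 from -0.46 to 0.0778, and at day 7 Pou3f1 from -0.0404 to 1.0. The causes were not tested. With only the libraries compared 7 differences (5 at day 3, 2 at day 4) had too few counts to be tested. Of 90 mean levels 87 moved by less than 1 SD with unscaled totals. At day 3 Pou3f3 rested on 0 to 3 counts per library and Pou3f4 on 0 to 4, and a difference was not detectable at this depth.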
